A study of Rattus norvegicus with 6 samples.

Results

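The complement genes described here are 35 components, receptors and regulators of the complement system in rat liver, matched by gene symbol. Of the 35 symbols, 34 were matched in a table of 32623 genes, and Mbl2 had no row under that symbol. Cfb had 2 rows, which made 35 rows, and 1 of these Cfb rows held 0 counts in every library. The other 34 rows entered the test, which was made over 14298 genes. The study sequenced messenger RNA from whole tissue labelled liver in 6 rat libraries, and its title places it in hepatocellular carcinoma. The 3 GZM libraries came from rats whose vessels were embolized with zinc sulfide microspheres, and the 3 GM libraries from the control group embolized with blank microspheres, so embolization was common to both groups. Strain, sex, age, time after embolization and the share of tumour in each piece are not stated in the labels. The labels number the biosamples of each group without saying that each was a separate animal, so the tests may capture technical spread alone.

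Complement is a set of plasma proteins that mark and puncture targets. The classical route starts when C1q and its proteases C1r and C1s bind to antibody or damaged cells, the lectin route starts when mannose-binding lectin, collectins or ficolins with their MASP proteases bind to sugars, and the alternative route amplifies C3 cleavage with factors B and D and properdin. All routes cleave C3 and then C5, the fragments C3a and C5a signal through receptors on leukocytes, and C5b to C9 assemble into a membrane pore. Hepatocytes make most of the circulating components, whereas macrophages, Kupffer cells of the liver among them, are known as the main source of C1q. On this textbook basis 24 of the 35 genes were called liver-made, 6 macrophage-made (C1qa, C1qb, C1qc, Cfp, C3ar1 and C5ar1) and 5 of other source (C7, Cfd, Fcna, Cd55 and Cd59).

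Total counts per library ran from 13443115 to 16604067. Levels below are CPM, counts scaled to a common library size, with edgeR's TMM factors, which were 0.742, 0.715 and 0.793 in GZM 1 to 3 and 1.43, 1.42 and 1.17 in GM 1 to 3. Scaling by library totals alone lowered the median log2 fold change over all tested genes by 0.84, to -0.92 against -0.089 with TMM, so directions below are relative to the TMM scale unless stated. Among 12 hepatocyte markers 11 were higher in GZM, with a summed level of 75381 to 93311 CPM in GZM against 10071 to 36681 CPM in GM. No marker was at 0, so hepatocyte transcripts were present in every library, which does not give the share of tumour. All 8 cell division markers were lower in GZM. Over all tested genes 22.2% were higher and 21.7% lower. GM 3 stood apart from GM 1 and GM 2: it was the highest GM library for 23 of 23 tested liver-made complement genes, at a median of 2.95 times the mean of GM 1 and GM 2, and also for 6 of 6 macrophage-made ones, at a median of 2.18 times.

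On the TMM scale, transcripts of most liver-made components and of the soluble regulators were several-fold more abundant after zinc sulfide embolization. The receptor genes C3ar1 and C5ar1 and the membrane regulator Cd55 were less abundant, and the C1q chains did not pass the test. Of the 34 rows tested, 22 were higher in GZM, 3 were lower (C3ar1, C5ar1 and Cd55) and 9 did not pass edgeR's quasi-likelihood test at an adjusted p of 0.05 (C1qa, C1qb, C1qc, C2, C6, C7, Cfd, Cfp and Fcna). Over all tested genes 22.2% were higher and 21.7% lower by the same rule, 44% in either direction. The median log2 fold change of the 34 rows was 1.58, against -0.089 over all tested genes. Groups did not overlap for 26 of the 34 rows, 23 with GZM above and 3 with GZM below, against 58.1% of all tested genes in either direction (28.4% above, 29.7% below). With library totals 17 were higher and 10 lower, where 9.2% of all genes were higher, 59.5% lower and 68.7% either. Without GM 1 the number higher was 15, and without GM 3 it was 24.

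Set out by the known source of each gene, the counts differed. Of 23 tested liver-made genes 21 were higher and none lower. Their median log2 fold change was 2.27, against 2.64 for the 12 hepatocyte markers. With library totals 17 of the 23 were higher and 1, C2, was lower. Of the 6 macrophage-made genes none was higher and 2 were lower, with a median of -0.54, and with library totals 5 were lower. Over all tested genes 22.2% were higher and 21.7% lower with TMM, and 9.2% and 59.5% with library totals. With 6 genes, the macrophage-made counts lower in GZM were not far above these shares. Liver-made genes together took 4.19%, 4.13% and 4.22% of all counts in GZM 1 to 3, against 1.24%, 0.836% and 2.51% in GM 1 to 3. Macrophage-made genes took 0.085%, 0.0512% and 0.0607% in GZM, against 0.124%, 0.109% and 0.234% in GM. These shares are on the scale of library totals. On the TMM scale the macrophage-made sums overlapped, at 1145, 716 and 766 CPM in GZM against 871, 766 and 2000 CPM in GM. The liver-made sums did not, at 56458, 57739 and 53284 CPM in GZM against 8669, 5895 and 21386 CPM in GM. In each library the summed liver-made counts were 49.3, 80.6 and 69.5 times the macrophage-made counts in GZM and 9.95, 7.69 and 10.7 times in GM. This ratio needs no scaling between libraries, and all 3 GZM values lay above all 3 GM values. In bulk tissue fewer cells of a type and less RNA per cell cannot be told apart, and the part of the hepatocyte marker difference in these changes was not tested.

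**Figure D1:**
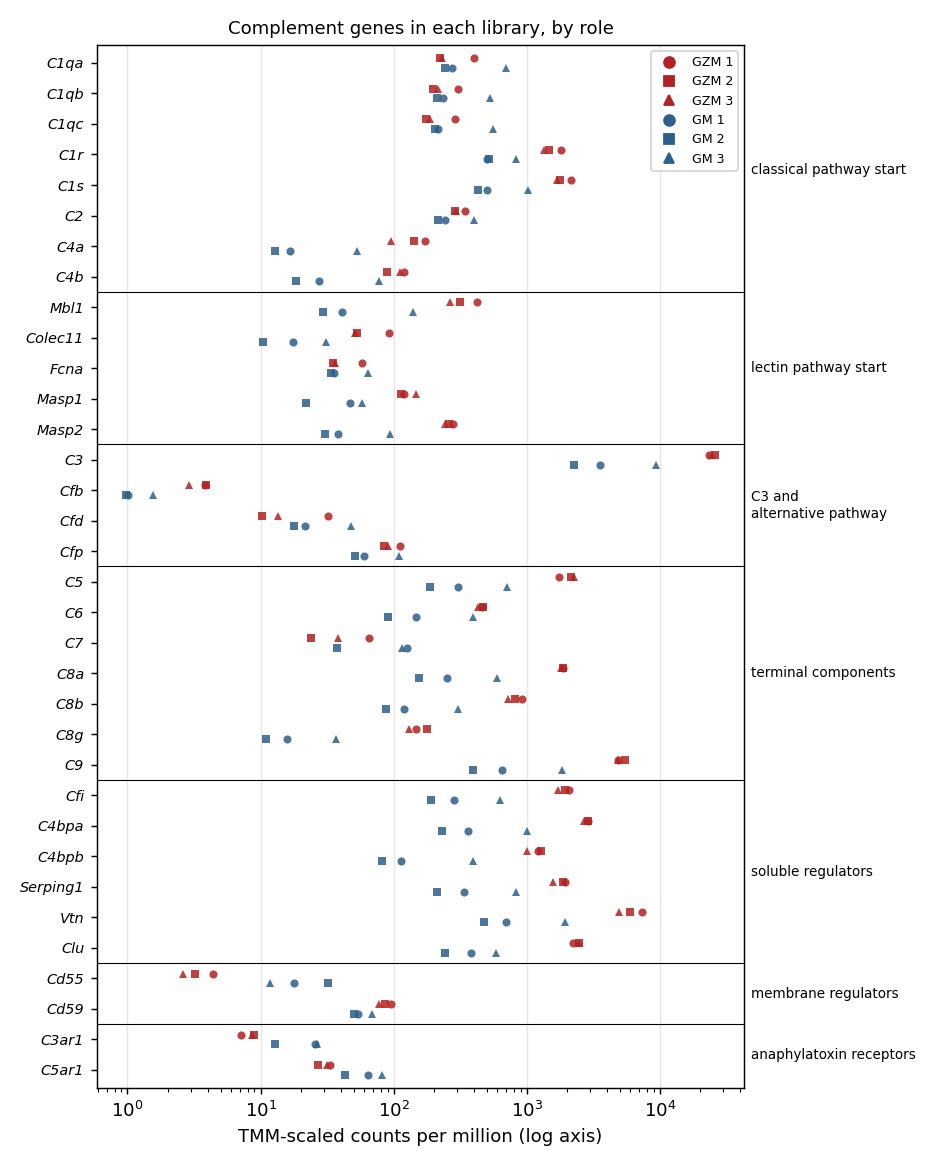
Level of each of the 34 tested complement rows in each library, in TMM-scaled CPM on a log axis, ordered by role. Red symbols are GZM libraries and blue symbols GM libraries, and GM 3 is the highest GM library for all 23 tested liver-made genes.

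**Figure D2:**
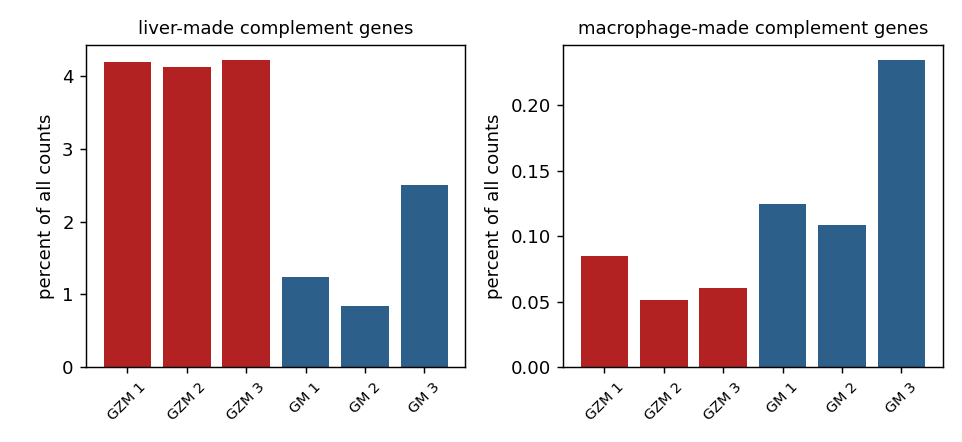
Percent of all counts taken by the liver-made (left) and macrophage-made (right) complement genes, 1 bar per library, on axes of different height. Liver-made genes took 4.13% to 4.22% in GZM and 0.836% to 2.51% in GM, while macrophage-made genes took 0.0512% to 0.085% in GZM and 0.109% to 0.234% in GM. These shares carry no TMM factors, and on the TMM scale the macrophage-made sums overlapped between groups.

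Promoter sequences were taken from RefSeq (GRCr8) for 23 of the 35 genes, as 250 bases before to 50 bases after the annotated start. Of these genes 6 are shown because they carry the contrast: C3, C8a, C4bpa and C4bpb, which were higher in GZM, Cd55, the neighbour of the C4bp genes that was lower, and C1qa, which did not pass. Capitals mark matches, on either strand, to the motifs searched: TTGCNNAA (a C/EBP form), CAAAGTCC (HNF4), TTCNNNGAA (STAT), a loose NF-kB form (GGGA and CC parted by 4 bases) and GAGGAAG (a PU.1 form). No capitals of different motifs overlap in these 6 windows.
C3, chr9:2201290-2201589, minus strand: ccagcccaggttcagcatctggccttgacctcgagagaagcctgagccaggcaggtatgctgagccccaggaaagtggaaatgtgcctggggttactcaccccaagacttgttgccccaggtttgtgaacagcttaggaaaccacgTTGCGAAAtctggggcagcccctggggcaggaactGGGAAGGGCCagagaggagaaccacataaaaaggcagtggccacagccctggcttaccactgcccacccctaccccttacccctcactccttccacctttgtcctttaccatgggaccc
C8a, chr5:124866582-124866881, minus strand: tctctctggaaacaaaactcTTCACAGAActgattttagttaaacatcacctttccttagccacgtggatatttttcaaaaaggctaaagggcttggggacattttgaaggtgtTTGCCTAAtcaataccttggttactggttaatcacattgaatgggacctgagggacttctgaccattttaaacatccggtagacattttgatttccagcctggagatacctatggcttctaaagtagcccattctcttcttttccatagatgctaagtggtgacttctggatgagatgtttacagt
C4bpa, chr13:44663422-44663721, minus strand: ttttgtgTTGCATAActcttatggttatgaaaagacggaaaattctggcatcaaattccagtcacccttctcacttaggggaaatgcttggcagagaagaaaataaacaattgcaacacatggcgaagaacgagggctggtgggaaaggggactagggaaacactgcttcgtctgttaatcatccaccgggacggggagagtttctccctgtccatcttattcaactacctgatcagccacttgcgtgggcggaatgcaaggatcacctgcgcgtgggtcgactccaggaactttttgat
C4bpb, chr13:44683732-44684031, minus strand: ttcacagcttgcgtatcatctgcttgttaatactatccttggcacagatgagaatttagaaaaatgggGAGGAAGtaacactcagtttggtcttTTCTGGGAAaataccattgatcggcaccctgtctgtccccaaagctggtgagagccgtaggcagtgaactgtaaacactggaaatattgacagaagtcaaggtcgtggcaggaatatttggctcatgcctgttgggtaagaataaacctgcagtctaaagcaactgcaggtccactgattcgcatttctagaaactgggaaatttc
Cd55, chr13:44438052-44438351, minus strand: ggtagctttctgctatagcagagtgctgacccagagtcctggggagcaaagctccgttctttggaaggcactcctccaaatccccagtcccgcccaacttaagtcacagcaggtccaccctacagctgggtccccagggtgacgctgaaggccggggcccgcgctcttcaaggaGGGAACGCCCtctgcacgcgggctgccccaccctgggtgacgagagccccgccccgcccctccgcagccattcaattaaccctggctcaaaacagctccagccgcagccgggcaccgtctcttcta
C1qa, chr5:154419884-154420183, minus strand: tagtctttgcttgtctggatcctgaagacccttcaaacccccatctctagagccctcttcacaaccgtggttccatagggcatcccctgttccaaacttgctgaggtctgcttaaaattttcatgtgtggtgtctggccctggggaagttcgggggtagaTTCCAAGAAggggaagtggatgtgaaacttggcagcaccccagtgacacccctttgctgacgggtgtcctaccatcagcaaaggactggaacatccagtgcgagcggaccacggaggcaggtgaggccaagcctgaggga

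In these windows, numbered with the start as base 1 and no base 0, C3 held the C/EBP form TTGCGAAA at -104 to -97 and the NF-kB form GGGAAGGGCC at -69 to -60. C8a held TTGCCTAA at -136 to -129 together with TTCACAGAA at -230 to -222. C4bpa held TTGCATAA at -243 to -236, C4bpb held TTCTGGGAA at -156 to -148 and GAGGAAG at -182 to -176, and Cd55 held GGGAACGCCC at -76 to -67. The C1qa window held TTCCAAGAA at -90 to -82 and none of the other motifs. Over the 23 genes the C/EBP form was present in 6 (C1r, C3, C4bpa, C6, C8a and C8b), or 26.1%, against 10.6% of 33469 rat promoters. The STAT form was present in 4 (C1qa, C4bpb, C8a and Vtn) against 8.87% of all promoters, the NF-kB form in 5 (C1qb, C3, C4a, C4b and Cd55) against 19.3%, and the PU.1 form in 3 (C4bpb, Fcna and Mbl1) against 12.4%. The HNF4 form, present in 1.4% of all promoters, was in none of the 23. A match is a description of letters and not a bound site.

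Among the starters of the classical route, the proteases C1r and C1s and both annotated C4 copies were higher in GZM. C1r, the protease that activates C1s, had 1817, 1458 and 1351 CPM in GZM 1 to 3, against 502, 523 and 835 CPM in GM 1 to 3. Its log2 fold change was 1.31 ± 0.29 (SE, edgeR adjusted p = 0.00936). C1s, which cleaves C4 and C2, had 2165, 1764 and 1699 CPM in GZM, against 500.0, 430.4 and 1014 CPM in GM, a log2 fold change of 1.53 ± 0.37 (edgeR adjusted p = 0.0128). The groups did not overlap for either gene. C1s lost its call without GM 1 (edgeR adjusted p = 0.0592), and with library totals neither C1r (edgeR adjusted p = 0.0899) nor C1s (edgeR adjusted p = 0.0527) passed.

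C4, the component cleaved by C1s and by MASP-2, is annotated in several copies whose reads can be split between them, so single copies are uncertain. C4a averaged 137 ± 39.4 CPM in GZM and 27.5 ± 22.2 CPM in GM (SD, n = 3 each), with a log2 fold change of 2.31 ± 0.53 (edgeR adjusted p = 0.011). C4b averaged 107 ± 16.1 CPM in GZM and 41.1 ± 31.9 CPM in GM, and its log2 fold change of 1.38 ± 0.49 passed narrowly (edgeR adjusted p = 0.0497). Leaving out any library other than GM 3 ended the C4b call, with edgeR adjusted p of 0.0856 to 0.151, and so did library totals (0.63, edgeR adjusted p = 0.203). The C4b row (chromosome 20, 4302344 to 4316715, minus strand) lies almost wholly inside the row LOC103689965 (4302347 to 4508214, same strand), annotated as complement C4-like and named after its values were seen. LOC103689965 had 970, 726 and 652 CPM in GZM, against 122, 95.2 and 316 CPM in GM. In FPKM, which divides by exon length, LOC103689965 had 132, 95.1 and 94.6 in GZM and 31.8, 24.7 and 67.8 in GM, above C4a and C4b in every library. The 3 rows summed gave 1262, 956 and 859 CPM in GZM, against 166, 126 and 446 CPM in GM, with a log2 fold change of 2.06 ± 0.48 (edgeR adjusted p = 0.0115). Without GM 3 the fold of C4a was 9.5 in place of 4.97 and that of C4b 4.82 in place of 2.61.

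C2, which supplies the protease of the classical and lectin C3 convertase, behaved unlike the other liver-made starters. It had 344, 287 and 291 CPM in GZM, against 241, 215 and 404 CPM in GM, with overlapping groups and a log2 fold change of 0.10 ± 0.27 (edgeR adjusted p = 0.778). With library totals C2 was lower (log2 fold change -0.70, edgeR adjusted p = 0.0241). Cfb, factor B, is the equivalent protease of the alternative route and lies beside C2 on chromosome 20. The tested Cfb row (4536203 to 4561066, minus strand) spans the C2 row (4542340 to 4561152) and a second Cfb row (4536212 to 4542073) that had 0 counts. The tested row had 37 to 41 counts per library in GZM and 21 to 30 in GM, so the level of factor B is uncertain in this table, as is any read shared with C2.

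The 3 C1q chains, which form the recognition unit and are encoded side by side on chromosome 5 (155246447 to 155264143), did not pass. C1qa had 399.7, 221 and 232 CPM in GZM, against 275, 242 and 702 CPM in GM (log2 fold change -0.52 ± 0.44, edgeR adjusted p = 0.371). C1qb averaged 239 ± 55.4 CPM in GZM and 323 ± 176 CPM in GM, and C1qc 218 ± 62.8 CPM in GZM and 324 ± 199 CPM in GM. Groups overlapped for all 3 chains. GM 3 set their sign: without it the log2 fold changes were 0.17, 0.14 and 0.097 for C1qa, C1qb and C1qc, none passing. With library totals all 3 chains were lower in GZM, at -1.29, -1.22 and -1.34 (edgeR adjusted p of 0.0174, 0.00998 and 0.0109). The chains kept nearly the same proportions to each other. Counts per exon length of C1qa over C1qb averaged 1.21 ± 0.14 in GZM and 1.26 ± 0.10 in GM, and those of C1qc over C1qb 0.902 ± 0.0472 in GZM and 0.975 ± 0.0693 in GM.

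Of the starters of the lectin route, 4 of 5 tested were higher in GZM. Mbl1, mannose-binding lectin A of rodents, had 424, 313 and 266 CPM in GZM, against 41.0, 29.4 and 140.04 CPM in GM (log2 fold change 2.25 ± 0.57, edgeR adjusted p = 0.0152). Masp2, the protease that cleaves C4 and C2 on this route, had 279, 261 and 245 CPM in GZM, against 37.9, 30.4 and 93.3 CPM in GM (log2 fold change 2.28 ± 0.41, edgeR adjusted p = 0.00475). For both genes the lowest GZM library was above the highest GM library. Masp1, which activates MASP-2, had a log2 fold change of 1.59 ± 0.33 (edgeR adjusted p = 0.00778), and Colec11, the collectin CL-K1, 1.75 ± 0.41 (edgeR adjusted p = 0.0112). Fcna, ficolin A, had 57.6, 35.3 and 36.4 CPM in GZM, against 35.8, 34.1 and 64.6 CPM in GM, with overlapping groups (edgeR adjusted p = 0.887), and was lower with library totals (-0.86, edgeR adjusted p = 0.0187). Without GM 1 Mbl1 no longer passed (edgeR adjusted p = 0.0565), and without GM 3 the folds of Mbl1 and Masp2 were 9.73 and 7.86 in place of 4.77 and 4.86. A row annotated mannose-binding protein C-like, LOC100911854, named after its values were seen, averaged 22.6 ± 8.18 CPM in GZM and 4.94 ± 1.89 CPM in GM (log2 fold change 2.19 ± 0.38, edgeR adjusted p = 0.00421). Mannose-binding protein C is the product of Mbl2, the symbol without a row, and whether this row stands for Mbl2 was not tested.

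C3, on which all routes meet, ranked first by FPKM among the complement genes in both groups. It had 23234, 25882 and 24430 CPM in GZM, against 3576, 2250 and 9427 CPM in GM. The GZM libraries lay close together and the GM libraries spread widely, with GM 3 highest and still below every GZM library. The log2 fold change was 2.27 ± 0.60 (edgeR adjusted p = 0.0182). The call was lost without GZM 2 (edgeR adjusted p = 0.0547), without GZM 3 (0.0504) and without GM 1 (0.0861), while without GM 3 the fold was 8.64 in place of 4.82. C3 lies on chromosome 9 (9721105 to 9747167, plus strand, in the deposited table). Counts per exon length of C3 over C5, the next component cleaved, were alike in both groups, at 12.6 ± 1.22 in GZM and 12.9 ± 0.834 in GM.

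The other alternative route genes did not follow C3 in size. Cfb averaged 3.53 ± 0.539 CPM in GZM and 1.18 ± 0.316 CPM in GM (log2 fold change 1.58 ± 0.34, edgeR adjusted p = 0.00886), at the low counts described above. The Cfb call was lost with library totals (0.76, edgeR adjusted p = 0.0682) and with limma on log2(FPKM + 0.5) (0.36, limma adjusted p = 0.0882). Cfp, properdin, which stabilizes the convertase of this route, had 112, 84.0 and 90.0 CPM in GZM, against 59.6, 51.3 and 110.02 CPM in GM (log2 fold change 0.37 ± 0.29, edgeR adjusted p = 0.328). Without GM 3 properdin passed (0.82, edgeR adjusted p = 0.00742), and with library totals its sign turned (-0.42, not passing). Cfd, factor D, which cleaves factor B and is known as a product of fat cells, had 31.9, 10.3 and 13.5 CPM in GZM, against 21.7, 17.7 and 48.2 CPM in GM (edgeR adjusted p = 0.317). With library totals Cfd was lower (-1.44, edgeR adjusted p = 0.0226), and with TMM its log2 fold change was -1.29 without GZM 1 and -0.056 without GM 3. Of 5 fat cell markers, Adipoq, Plin1 and Lep had no more than 6 counts in any library. Cidec had 63.1, 79.5 and 72.2 CPM in GZM, against 6.46, 5.11 and 17.3 CPM in GM (log2 fold change 2.90, edgeR adjusted p = 0.00304), and Fabp4 57.1, 60.9 and 79.9 CPM in GZM, against 35.8, 15.8 and 66.9 CPM in GM (edgeR adjusted p = 0.21). Cidec and Fabp4 are not confined to fat cells, so their values were not read as a level of fat cells. The part of fat cells in the Cfd values was not tested. The Cfd row lies inside Arhgap45 on the same strand, so its counts are uncertain.

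Among the terminal components 5 of 7 were higher in GZM, and C6 and C7 did not pass. C5 had 1759, 2135 and 2247 CPM in GZM, against 304, 186 and 710.0 CPM in GM (log2 fold change 2.36 ± 0.49, edgeR adjusted p = 0.00742). C8a, C8b and C8g encode the chains of C8, and C8g, the lipocalin-like chain, had the highest log2 fold change of all 34 rows. C8g had 148, 177 and 129 CPM in GZM, against 15.7, 10.9 and 36.6 CPM in GM (2.85 ± 0.43, edgeR adjusted p = 0.00307). C8a had 1873, 1877 and 1801 CPM in GZM, against 251, 154 and 599 CPM in GM (2.47 ± 0.49, edgeR adjusted p = 0.00631). C8b had a log2 fold change of 2.26 ± 0.46 (edgeR adjusted p = 0.00702). Counts per exon length of C8g over C8b were 0.48, 0.659 and 0.543 in GZM, against 0.395, 0.374 and 0.361 in GM, so all GZM values were above all GM values. C8g overlaps Fbxw5 by 363 bases and C5 overlaps AABR07051501.1, both on the opposite strand, and whether the counting used strand is not stated. A row annotated similar to Complement C5, AABR07051507.1, named after its values were seen, had a log2 fold change of 2.62 ± 0.52 (edgeR adjusted p = 0.00654). Without GM 3 the folds of C5, C8a, C8b and C8g were 8.58, 9.39, 8.10 and 11.7, against 5.12, 5.53, 4.79 and 7.2 with it.

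C6 (54466280 to 54533797), C7 (54709138 to 54777729) and C9 (55775274 to 55823826) lie near each other on chromosome 2 and differed in how they changed. C9, which polymerizes into the pore, had 4818, 5494 and 4880 CPM in GZM, against 648, 392 and 1829 CPM in GM (log2 fold change 2.40 ± 0.57, edgeR adjusted p = 0.0119). C6 had 462, 465 and 433 CPM in GZM, against 148, 90.1 and 397 CPM in GM, without overlap (1.10 ± 0.49, edgeR adjusted p = 0.103). C7 had 64.8, 23.9 and 38.1 CPM in GZM, against 127, 37.7 and 115 CPM in GM, with overlap (-1.14 ± 0.49, edgeR adjusted p = 0.0956). Counts per exon length of C9 over C6 were 13.0, 14.8 and 14.1 in GZM, against 5.46, 5.43 and 5.76 in GM. Those of C6 over C7 were 6.03, 16.4 and 9.63 in GZM, against 0.991, 2.02 and 2.92 in GM. Neither ratio overlapped between groups. C6 passed without GM 3 (1.96, edgeR adjusted p = 0.000528) and C7 passed without GM 2 (-1.52, edgeR adjusted p = 0.0212) and with library totals (-1.95, edgeR adjusted p = 0.00801). C9 lost its call without GM 1 (edgeR adjusted p = 0.0544), and its fold without GM 3 was 9.99 in place of 5.3. C7 is known to be made outside hepatocytes as well. Among 8 matched stellate cell and fibroblast markers 1 was higher and 1 lower, where 22.2% and 21.7% of all tested genes were. With library totals 0 were higher and 7 lower, against 9.2% and 59.5% of all tested genes. The summed level of these markers was 1811 to 4192 CPM in GZM against 3555 to 9697 CPM in GM. The part of these cells in the C7 values was not tested.

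All 6 soluble regulators were higher in GZM, with a median log2 fold change of 2.49. Clu, clusterin, which keeps the terminal complex soluble, had 2237, 2468 and 2471 CPM in GZM, against 382, 241 and 591 CPM in GM (2.56 ± 0.36), with the lowest adjusted p of the 34 rows (edgeR adjusted p = 0.00263). Vtn, vitronectin, which does the same, had 7330, 5963 and 4923 CPM in GZM, against 696, 478 and 1930.1 CPM in GM (2.55 ± 0.56, edgeR adjusted p = 0.00899). C4bpa and C4bpb encode the chains of C4b-binding protein, a cofactor for the cleavage of C4b. C4bpa had 2902, 2902 and 2699.6 CPM in GZM, against 362, 231 and 996 CPM in GM (2.42 ± 0.53, edgeR adjusted p = 0.00934). C4bpb had 1219, 1271 and 1004 CPM in GZM, against 113, 82.0 and 398 CPM in GM (2.56 ± 0.58, edgeR adjusted p = 0.0104). Cfi, factor I, the protease that inactivates C3b and C4b, had a log2 fold change of 2.37 ± 0.45 (edgeR adjusted p = 0.00568). Serping1, the inhibitor of C1r, C1s and the MASPs, had 1948, 1867 and 1585 CPM in GZM, against 339, 211 and 828 CPM in GM (1.97 ± 0.49, edgeR adjusted p = 0.0142). None of the 6 overlapped between groups. Serping1 lost its call without GM 1 (edgeR adjusted p = 0.0611). Without GM 3 the folds of C4bpa, C4bpb, Vtn, Cfi and Serping1 were 9.82, 12.2, 10.6, 8.28 and 6.71, against 5.35, 5.89, 5.87, 5.17 and 3.92 with it.

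The membrane regulators moved in opposite directions. Cd55, decay-accelerating factor, which takes convertases apart on the cell's own surface, had 4.41, 3.21 and 2.59 CPM in GZM, against 17.7, 32.1 and 11.7 CPM in GM. Its log2 fold change of -2.60 ± 0.42 (edgeR adjusted p = 0.00343) was the lowest of the 34 rows, it passed without each library in turn (edgeR adjusted p of 0.000375 to 0.0189), and it was -3.47 with library totals. Cd55 lies on chromosome 13 (47126741 to 47154292, minus strand), on the same strand as and close to C4bpa (47342079 to 47377703) and C4bpb (47387173 to 47397890), whose changes were of opposite sign. Within GM the order of Cd55 was also unlike that of the liver-made genes, with GM 3 lowest and GM 2 highest. Cd59, which blocks C9 from joining the pore, had 94.9, 86.2 and 78.0 CPM in GZM, against 53.6, 50.5 and 68.4 CPM in GM, a small difference of 0.59 ± 0.17 (edgeR adjusted p = 0.0262). Its call was lost without any library other than GM 3 (edgeR adjusted p of 0.0502 to 0.0944), and with library totals its sign turned (-0.24, edgeR adjusted p = 0.211).

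**Figure D3:**
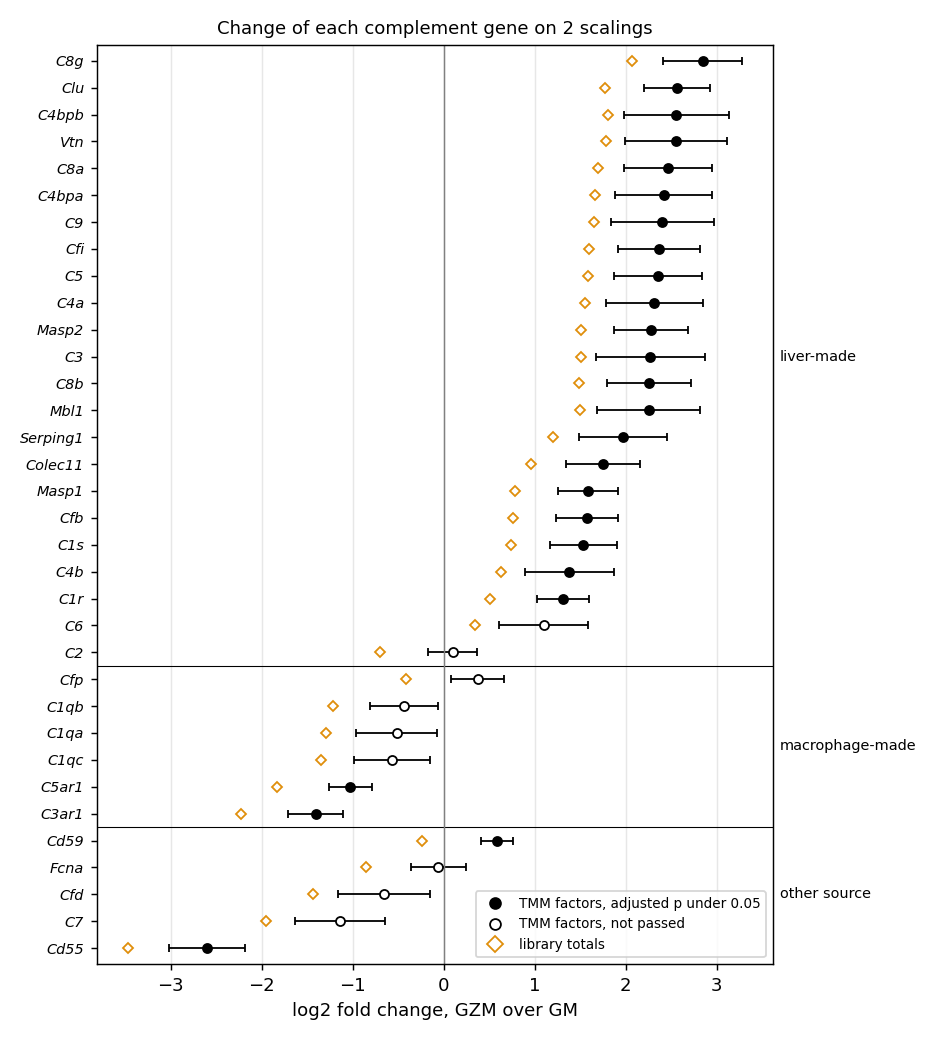
Log2 fold change of GZM over GM for each of the 34 tested rows, grouped by known source, with standard errors for TMM factors (circles, filled where the adjusted p was under 0.05) and the value with library totals (orange diamonds). Of the 23 liver-made genes 21 are filled and to the right of 0, and library totals move every row to the left.

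The anaphylatoxin receptors C3ar1 and C5ar1 were lower in GZM. C3ar1, the receptor for C3a, had 7.12, 8.86 and 8.56 CPM in GZM, against 25.8, 12.9 and 26.5 CPM in GM (log2 fold change -1.41 ± 0.30, edgeR adjusted p = 0.00843). C5ar1, a receptor for C5a, had 33.5, 27.0 and 31.8 CPM in GZM, against 63.8, 43.0 and 81.1 CPM in GM (-1.03 ± 0.24, edgeR adjusted p = 0.0111). Every GZM library was below every GM library for both genes. C5ar1 lost its call without GZM 2 (edgeR adjusted p = 0.0541). Thus the ligand genes C3 and C5 and the receptor genes C3ar1 and C5ar1 had changes of opposite sign in the same libraries. With library totals these were 1.51 for C3, 1.59 for C5, -2.23 for C3ar1 and -1.83 for C5ar1.

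The macrophage-made genes were read beside 14 matched macrophage and Kupffer cell markers, of which 3 were higher, 8 lower and 3 did not pass. Among all tested genes 22.2% were higher and 21.7% lower. With library totals 1 marker was higher (Clec4f) and 10 lower, against 9.2% and 59.5% of all tested genes. Cd5l (edgeR adjusted p = 0.0667) and Vsig4 (edgeR adjusted p = 0.063) did not pass on that scale. The summed marker level was 2218 to 2919 CPM in GZM, against 3645 to 6254 CPM in GM, and no marker was at 0 in any library. The markers that were higher are known in mouse from resident Kupffer cells: Clec4f (429, 361 and 439.7 CPM in GZM, against 57.0, 48.9 and 148 CPM in GM, edgeR adjusted p = 0.0053), Cd5l (log2 fold change 1.83, edgeR adjusted p = 0.0296) and Vsig4 (1.73, edgeR adjusted p = 0.0218). The 8 that were lower included Lyz2 (950.005, 619 and 718 CPM in GZM, against 2952, 2343 and 3406 CPM in GM, edgeR adjusted p = 0.00316), Fcgr1a (-1.47), Cd68 (-1.09) and Csf1r (-0.99). Cd163 (-1.14), Adgre1 (-1.08), Aif1 (-0.96) and Mertk (-0.73) were lower as well, each losing its call without some libraries. Cd163 and Adgre1 are known from Kupffer cells too, so markers known from these cells did not all rise. Marco (1.02, edgeR adjusted p = 0.282) and Mrc1 (-0.55, edgeR adjusted p = 0.151) did not pass. The receptors C3ar1 and C5ar1 thus had the sign of the 8 lower markers. The C1q chains had that sign too with all libraries (-0.52, -0.44 and -0.57 for C1qa, C1qb and C1qc) but did not pass. Properdin had the opposite sign (0.37) and did not pass. The part of these cells in the complement values was not tested. Clec4f, Lyz2 and Fcgr1a passed without each library in turn. Cd5l passed only with all libraries or without GM 3 (2.88), Vsig4 was lost without GZM 2, GZM 3 or GM 1 (edgeR adjusted p of 0.0544, 0.0602 and 0.0794), and so were Cd68 (0.122, 0.0898 and 0.0514) and Csf1r (0.0948, 0.0636 and 0.0669). Without GM 3 the log2 fold changes of Clec4f and Vsig4 were 2.99 and 2.55, and Marco, another Kupffer cell receptor, passed at 2.71.

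**Figure D4:**
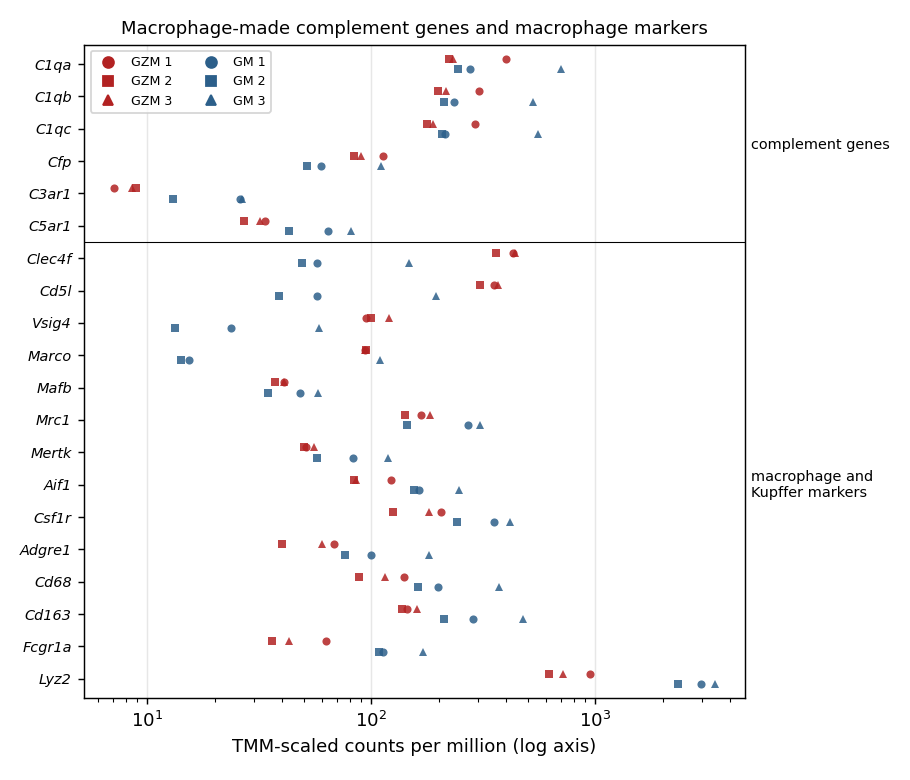
Levels of the 6 macrophage-made complement genes and 14 macrophage and Kupffer cell markers in each library, in TMM-scaled CPM on a log axis, with GZM libraries in red and GM libraries in blue. C3ar1 and C5ar1 are lower in all GZM libraries, as is Lyz2, while Clec4f is higher in all of them and the C1q chains overlap.

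Ranked by FPKM, C3, Vtn and C9 were the first 3 complement transcripts in both groups, at 3539 ± 206, 2681 ± 475 and 1578 ± 78.5 FPKM in GZM and 1242 ± 790, 775 ± 496 and 503 ± 346 FPKM in GM (SD, n = 3 each). The C1q chains came next in GM, at ranks 4 to 6 of 34, but stood at ranks 15 to 17 in GZM. C1qa had 203 ± 70.2 FPKM in GZM and 496 ± 252 FPKM in GM, and in GM its neighbours in rank lay within its spread. Clu ranked 4 in GZM and 9 in GM, C8g 18 in GZM and 26 in GM, and C7 30 in GZM and 22 in GM. Cd55 and the tested Cfb row were the last 2 in GZM, at 0.82 ± 0.212 and 0.567 ± 0.0586 FPKM. FPKM was not rescaled between libraries, so these are orders within a group.

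Of 24 other genes of the complement system and its recognition molecules, 23 were tested, 11 were higher, 4 lower and 8 did not pass, with a median log2 fold change of 0.67. Over all tested genes 22.2% were higher and 21.7% lower, so the 4 lower genes were not more than that share. With library totals 9 were higher and 7 lower, against 9.2% and 59.5% of all tested genes, with a median of -0.14. Cd46 (edgeR adjusted p = 0.269) and Vsig4 did not pass on that scale. The higher ones include plasma proteins of the liver: Crp, C-reactive protein, which binds C1q (2.54 ± 0.50, edgeR adjusted p = 0.00631), Apcs, serum amyloid P (2.54), and Cpn1 and Cpn2 (2.58 and 2.38), the subunits of carboxypeptidase N, which trims C3a and C5a. Crp had 6166, 6073 and 4929 CPM in GZM, against 840.4, 446 and 1674 CPM in GM, without overlap. C1rl, the neighbour of C1r, was higher by 1.79, and so were Vsig4, a C3b receptor (1.73), and, both at low level, Cd46, a membrane cofactor (1.34), and Csmd1 (2.55). Cd46 had 2.91, 2.55 and 4.08 CPM in GZM, against 1.54, 0.809 and 1.44 CPM in GM. The lower ones were Fcnb, ficolin B (-1.86), the integrin chains Itgam and Itgax of complement receptors CR3 and CR4 (-1.78 and -1.09), and the scavenger collectin Colec12 (-1.54). The leukocyte receptors Itgam and Itgax thus had the sign of C3ar1 and C5ar1. Other receptor genes of this list did not pass, Itgb2 with the same sign (-0.84) and C5ar2 (0.67), Cr1l (0.45) and Cr2 (0.47) with the opposite sign. Calls were lost for Cd46 without GZM 2, GZM 3 or GM 2 (edgeR adjusted p of 0.0531, 0.101 and 0.0564), for Colec12 without GZM 2, GZM 3 or GM 1 (0.0932, 0.0862 and 0.0782) and for Vsig4 as above. Without GM 3 the log2 fold changes of Crp, Apcs, Cpn1, Cpn2 and Vsig4 were 3.19, 3.34, 3.18, 3.10 and 2.55, and without GZM 1 that of Colec12 was -2.13.

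Of 10 genes known to control hepatic complement transcription, 5 were higher and 5 did not pass, where 22.2% of all tested genes were higher and 21.7% lower. Hnf4a, a hepatocyte transcription factor, had 597, 576 and 549 CPM in GZM, against 77.1, 47.5 and 165 CPM in GM, without overlap. Its log2 fold change was 2.57 ± 0.43 (edgeR adjusted p = 0.00391). Nr1h4, the bile acid receptor FXR, was higher by 1.90 (edgeR adjusted p = 0.0149), Cebpa by 1.37 (edgeR adjusted p = 0.0218) and Il6r, the interleukin-6 receptor, by 0.66 (edgeR adjusted p = 0.0136), which turned to -0.16 with library totals. The acute phase regulators Cebpb, Cebpd and Stat3 and the receptor chains Il6st and Osmr did not pass, with log2 fold changes of 0.26 to 0.45. With library totals 3 of the 10 were higher and 2 lower, against 9.2% and 59.5% of all tested genes. The 2 lower were Cebpb (-0.53, edgeR adjusted p = 0.038) and Stat3 (-0.49, edgeR adjusted p = 0.0355), and Cebpa did not pass (0.57, edgeR adjusted p = 0.142). Nr1h4 and Il6r lost their calls without GM 1 (edgeR adjusted p of 0.0556 and 0.0552), and Cebpa without GZM 1, GM 1 or GM 2 (0.0617, 0.081 and 0.0666). Without GM 3 the log2 fold change of Hnf4a was 3.24.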

How the data were processed

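The data are 6 rat liver libraries of bulk RNA sequencing. Per the labels' protocols, polyadenylated RNA was made into strand-specific libraries. For the aligner, the counter and its use of strand, the sources used here give nothing. Per the submitters' processing notes the genome is mRatBN 7.2. Deposited positions go up to 282724300 on chromosome 1, past the end of that build, and are printed only as deposited. Per the file headers, the authors' table holds whole-number counts, FPKM values and exon lengths in bases. The deposited FPKM values were recomputed from the counts within 0.01 for all 195738 values. Columns lettered ZGM were matched to the GZM titles by letters and numbers.

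The counts of 14298 genes that passed edgeR's low-count filter were tested with edgeR 4.0.16 (R 4.3.3), quasi-likelihood, TMM factors, no covariate, adjusted by Benjamini-Hochberg at 0.05, and tested on simulated data. SE is the value implied by the quasi-F statistic. Alternatives were library totals, median-of-ratios factors, no filter, a replicate block, DESeq2 1.42.0, limma 3.58.1 on log2 FPKM, a fold minimum of 2 and leaving out each library. Summing the C4 copies was added after the data were seen. The 35 genes, their roles and sources, and the other lists were chosen with earlier results of these data known. All 35 are reported. Of other listed genes those that passed are given with values, markers by counts with examples. Some genes of these lists are counted but not reported by name here. Promoters come from RefSeq (GRCr8). Figures used matplotlib 3.10.9.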

Additional observations from a re-analysis of the deposited data

How the results depend on the processing

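The number of genes called over the whole table was 6285, 9828 with library totals, 9835 and 9874 with limma on log2(FPKM + 0.1) and log2(FPKM + 0.5), 4142 with a 2-fold minimum, and 3777 to 7024 when 1 library was left out, lowest without GZM 2. Complement genes called lower were 3, but 10 with library totals and with either limma setting, and 2 to 4 with 1 library left out. Those called higher were 22, with 17 to 23 over the other settings and 15 to 24 with 1 library left out. Of the 22, 15 passed in all 6 fits that left out a library. DESeq2 called 23 higher and 3 lower, C6 being added (adjusted p = 0.0495), and with median-of-ratios factors C4b no longer passed (edgeR adjusted p = 0.0504).

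With library totals, limma + 0.1 and limma + 0.5, which carry no composition scaling, the log2 fold changes turned to -0.42, -0.39 and -0.38 for Cfp, -0.24, -0.24 and -0.23 for Cd59, -0.70, -0.68 and -0.68 for C2, and -0.16, -0.16 and -0.16 for Il6r. Leaving out 1 library gave ranges across 0. They were -0.075 (without GM 2) to 0.47 for C2, -0.31 to 0.34 (without GM 3) for Fcna, and, with the positive end in each case without GM 3, -0.84 to 0.17 for C1qa, -0.68 to 0.14 for C1qb and -0.82 to 0.097 for C1qc. C2 was also at -0.013 without GM 1, and Fcna at 0.074 and 0.060 without GZM 2 and GZM 3. The cause was not tested.

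With the replicate number as a block, 5166 genes passed, and 21 complement genes were higher and 4 lower: Cd59 no longer passed (edgeR adjusted p = 0.0624) and C7 did (-1.07, edgeR adjusted p = 0.0135). Deviations of same-numbered libraries correlated at -0.14, 0.16 and -0.27, and not every library correlated best with its own number, so the numbers were not taken to pair the samples.

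With 3 libraries a group, the differences of C6 and C7 did not pass. Cfb rests on 21 to 41 counts per library, and counts of overlapping rows (C2 and Cfb, C4b and its C4-like neighbour, Cfd) cannot be told apart.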
